A study of Mus musculus with 8 samples.

Results

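Keratins are the intermediate filament proteins of epithelial cells, and the 10 keratin genes described here are those commonly used to tell basal from luminal mammary epithelium. They are the basal-type genes Krt5, Krt14, Krt15, Krt17 and Krt6a, the suprabasal gene Krt10, and the luminal-type genes Krt7, Krt8, Krt18 and Krt19. They were chosen by gene name from the annotation of the arrays. They are carried by 13 of the 55681 probes and make up 10 of the 19775 genes or other features tested. All 13 probes are described, on every array.

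The arrays measured mRNA in cultured MAM326 cells, a mammary cancer line of the mouse, separated by fluorescence-activated cell sorting 2 days after seeding. The groups are 4 arrays of GFP-positive MAM326 cells and 4 arrays of GFP-negative MAM326 cells, and the study set them against each other to describe a mammary cancer stem cell population. The design text gives 4 independent experiments at different passages, but no label ties an array to an experiment, so the p-values measure only how these 8 samples vary. The sources used here do not say what drives GFP, all cells come from 1 line, and no other agent or genotype is given for either group.

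A keratin filament is built from pairs of one acidic type I and one basic type II keratin, so members of both types are made together in a given cell layer. In the mammary gland Krt5 with Krt14 marks the basal, myoepithelial layer, while Krt8 with Krt18 marks luminal cells, which also make Krt7 and Krt19. Krt6a and Krt17 are known from stressed, wounded or proliferating epithelium, Krt15 from basal cells of stratified epithelia, and Krt10 from the suprabasal layers of skin. Mesenchymal cells use vimentin in place of keratins for their filaments.

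The genes lie in the 2 keratin clusters of the mouse genome. The probes for the type I genes Krt10, Krt14, Krt15, Krt17 and Krt19 are on chromosome 11, and those for the type II genes Krt5, Krt6a, Krt7 and Krt8 are on chromosome 15, where the probe for the type I gene Krt18 also lies. Positions are those the files give on the mouse build mm9. The 5 probes that follow each have a reading frame open through the whole probe, though transcript structures were not used here, and are shown because they are the stretches of keratin mRNA on which values below rest. They cover a type II and a type I gene of each layer. They include the second Krt5 probe and the second Krt8 probe, which were not the probes used in the test.
Krt5, second probe: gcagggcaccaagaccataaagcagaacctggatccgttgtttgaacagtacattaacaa
Krt14: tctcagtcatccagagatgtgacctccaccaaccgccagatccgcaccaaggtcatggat
Krt7: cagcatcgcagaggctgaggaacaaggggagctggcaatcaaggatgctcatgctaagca
Krt8, second probe: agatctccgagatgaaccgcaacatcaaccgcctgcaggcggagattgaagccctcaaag
Krt19: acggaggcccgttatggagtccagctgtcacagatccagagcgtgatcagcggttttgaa
The Krt14 probe is 60 bases long but spans 606 bases of the genome (chr11:100064683-100065288, minus strand), so it reads across a splice junction. The second Krt5 probe lies at chr15:101542056-101542115 (minus strand), the Krt7 probe at chr15:101253718-101253777 (plus strand), the second Krt8 probe at chr15:101828827-101828886 (minus strand) and the Krt19 probe at chr11:100002392-100002451 (minus strand). The remaining probes lie at chr15:101537514-101537573 (Krt5), chr11:99993331-99993390 (Krt15), chr11:100117535-100117594 (Krt17), chr15:101520862-101520921 (Krt6a), chr15:101827138-101827197 (Krt8) and chr15:101862341-101862400 (Krt18). Those of Krt10 lie at chr11:99246538-99246558 and chr11:99247846-99247905. The first of these, the probe used in the test, is 60 bases long but is given a span of 21 bases. How far a keratin probe also detects the mRNA of a related keratin was not tested.

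Promoter entries were found for 6 of the 10 genes in a RefSeq table of GRCm38.p6. The 60 bases just before the listed start are shown for 5 of them, because they set both partners of the luminal pair beside a basal type II gene, and because most of these genes moved together over the arrays. The entry for Krt14 starts inside the gene and is not shown. Capitals mark ATAAA, part of the TATA box consensus, and GGGCGG, the core of a GC box, searched on both strands. A GGGCGG on the minus strand reads CCGCCC.
Krt5: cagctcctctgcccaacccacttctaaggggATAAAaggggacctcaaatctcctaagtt
Krt7: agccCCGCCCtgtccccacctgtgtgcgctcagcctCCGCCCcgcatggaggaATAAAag
Krt8: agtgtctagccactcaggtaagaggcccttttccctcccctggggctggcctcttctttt
Krt18: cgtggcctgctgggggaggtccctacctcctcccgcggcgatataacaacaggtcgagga
Krt10: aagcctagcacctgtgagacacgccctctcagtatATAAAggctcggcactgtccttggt
These windows lie at chr15:101712906-101712965 (Krt5, minus strand), chr15:101412343-101412402 (Krt7, plus strand), chr15:102004343-102004402 (Krt8, minus strand), chr15:102028156-102028215 (Krt18, plus strand) and chr11:99389365-99389424 (Krt10, minus strand), all on GRCm38.p6. ATAAA is present in 3 of the 6 keratin windows, those of Krt5, Krt7 and Krt10, and in 11.8% of the 32851 windows of the same length in the table. In Krt5 its first base lies 29 bases before the start, in Krt10 25 bases and in Krt7 7 bases. GGGCGG is present in 1 of the 6, Krt7, and in 18.6% of all windows. Krt8 and Krt18, whose levels followed each other closely, have neither in this window. These matches describe the letters only.

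Levels below are log2 processed signals relative to the 75th percentile of the same array, which has level 0, and a level of one probe is not compared with that of another. A difference is GFP-positive minus GFP-negative on that log2 scale, with the standard error of limma's moderated test, and a gene passed the test at a Benjamini-Hochberg adjusted p under 0.05 over all 19775 features. None of the 10 keratins passed over all 8 arrays, with 9 differences above 0 and 1 below it (8 to 10 above 0 under the other background correction and scalings run), and 3 (Krt5, Krt14 and Krt15) had an unadjusted p under 0.05, all higher in GFP-positive cells. In the same test 2.55% of all features passed in either direction and 1.82% were higher, and 7.82% had an unadjusted p under 0.05 and were higher. The median difference was 0.67 for the 5 basal-type keratins and 0.42 for the 4 luminal-type keratins, against -0.06 for all features. In bulk RNA from a sorted fraction, fewer cells of a type and less RNA per cell cannot be told apart.

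The arrays themselves were not alike. All 8 lay on 1 slide, scanned at 1 time, in 2 rows that are only positions on the slide. Row 1 held GFP-positive replicates 1 and 3 and GFP-negative replicates 2 and 4, and row 2 held GFP-positive replicates 2 and 4 and GFP-negative replicates 1 and 3. Each replicate number thus lay in both rows, and a difference of the contrast between rows is, by arithmetic, the same quantity as replicates 1 and 3 minus replicates 2 and 4 summed over both groups. These readings cannot be told apart, nor can the experiment behind them. The first principal component over all features, with 40.1% of the variance, ran from GFP-positive replicate 3 (score -56.2) to GFP-negative replicate 2 (45.7) and GFP-negative replicate 4 (37.9). The share of probes well above background was 45.1% to 57.4% per array.

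Krt5, the type II keratin of basal cells, had levels of -3.04, -3.18, -2.44 and -3.88 in GFP-positive replicates 1 to 4, against -3.70, -4.42, -4.38 and -4.75 in GFP-negative replicates 1 to 4. GFP-positive replicate 3 was the highest array and GFP-negative replicate 4 the lowest. The groups overlapped only through GFP-positive replicate 4, which lay below GFP-negative replicate 1. The means were -3.14 ± 0.59 in GFP-positive cells and -4.31 ± 0.44 in GFP-negative cells (SD, n = 4 arrays each). The difference was 1.18 ± 0.32 (2.26-fold, 95% interval 0.43 to 1.92), with a limma adjusted p of 0.0912, so Krt5 did not pass. Its adjusted p ran from 0.0336 to 0.595 over 23 other settings, and with weights estimated per array it passed (1.24, adjusted p = 0.0336). With normexp background correction, which shrinks dim signals, the difference was 0.44.

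The second Krt5 probe was well above background on 1 array, GFP-positive replicate 3. Its levels were -7.56, -6.33, -5.05 and -6.73 in GFP-positive replicates 1 to 4, against -6.01, -7.43, -6.58 and -6.45 in GFP-negative replicates. It was too dim to test, and no fold is given for it. The one array on which it rose above background is the array on which the tested probe was highest. Its lowest array, GFP-positive replicate 1, was the second highest for the tested probe, so it is no check on that probe.

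Krt14, the type I partner of Krt5, had levels of 5.45, 5.56, 5.76 and 4.90 in GFP-positive replicates 1 to 4 and of 5.09, 4.31, 5.07 and 4.52 in GFP-negative replicates 1 to 4. The 3 highest arrays were GFP-positive, and GFP-positive replicate 4 lay between the higher and the lower pair of GFP-negative arrays. The means were 5.42 ± 0.37 in GFP-positive cells and 4.75 ± 0.40 in GFP-negative cells (SD, n = 4 arrays each). The difference of 0.67 ± 0.24 (1.59-fold, 95% interval 0.11 to 1.23) had an unadjusted p of 0.0244 and a limma adjusted p of 0.157.

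Krt15, a type I keratin of basal cells, was well above background on the fewest arrays of the 10, 4 of 8. Its levels were -4.11, -4.33, -4.50 and -3.96 in GFP-positive replicates 1 to 4, against -6.97, -5.38, -5.01 and -5.30 in GFP-negative replicates. Every GFP-positive array lay above every GFP-negative array, which held for 1 of the 10 keratins and for 5.07% of all features in that direction. The probe was well above background on GFP-positive replicates 1, 3 and 4 and, among the GFP-negative arrays, on replicate 2 alone. It was therefore kept for the test mostly through the group in which it is higher, its difference is uncertain and no fold is given. The fitted difference was 1.44 ± 0.40 (limma adjusted p = 0.0940). GFP-negative replicate 1 alone set much of the spread, since without it the difference was 1.00 and passed (adjusted p = 0.0315). Krt15 also passed with array weights (1.34, adjusted p = 0.0445), while under normexp correction the difference was 0.29 (adjusted p = 0.211).

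Krt17, a type I keratin of stressed and proliferating epithelium, had levels of 5.72, 4.97, 5.61 and 4.91 in GFP-positive replicates 1 to 4 and of 5.30, 4.47, 5.30 and 4.15 in GFP-negative replicates. The arrays fell into alternating levels within each group. GFP-positive replicates 1 and 3 were highest, GFP-negative replicates 1 and 3 came next, GFP-positive replicates 2 and 4 followed, and GFP-negative replicates 2 and 4 were lowest. The difference over all arrays was 0.50 ± 0.32 (adjusted p = 0.387).

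Krt6a, the type II keratin known from wounded epithelium, had levels of -3.29, -3.10, -1.13 and -2.70 in GFP-positive replicates 1 to 4, against -2.17, -2.54, -1.64 and -4.07 in GFP-negative replicates. The groups overlapped over most of their range, with GFP-positive replicate 3 highest and GFP-negative replicate 4 lowest. The difference was 0.05 ± 0.62, and its 95% interval of -1.39 to 1.49 leaves changes of more than 1 on the log2 scale possible in both directions. Its sign turned on leaving out GFP-positive replicate 3 (-0.42) or GFP-negative replicate 4 (-0.44).

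Krt10, the suprabasal type I keratin, differed least by its tested probe. Its tested probe had levels of 0.51, 0.44, 0.49 and 0.31 in GFP-positive replicates 1 to 4 and of 0.54, 0.44, 0.37 and 0.45 in GFP-negative replicates. The 8 arrays spanned 0.23 on the log2 scale, against a median range of 0.595 over all features, and the groups overlapped fully. The difference was -0.01 ± 0.07 (95% interval -0.18 to 0.16). The second Krt10 probe differed by 0.38 ± 0.26 (adjusted p = 0.428 over all kept probes), with GFP-positive replicate 3 highest at -2.88 and GFP-positive replicate 4 lowest at -4.21.

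**Figure D1:**
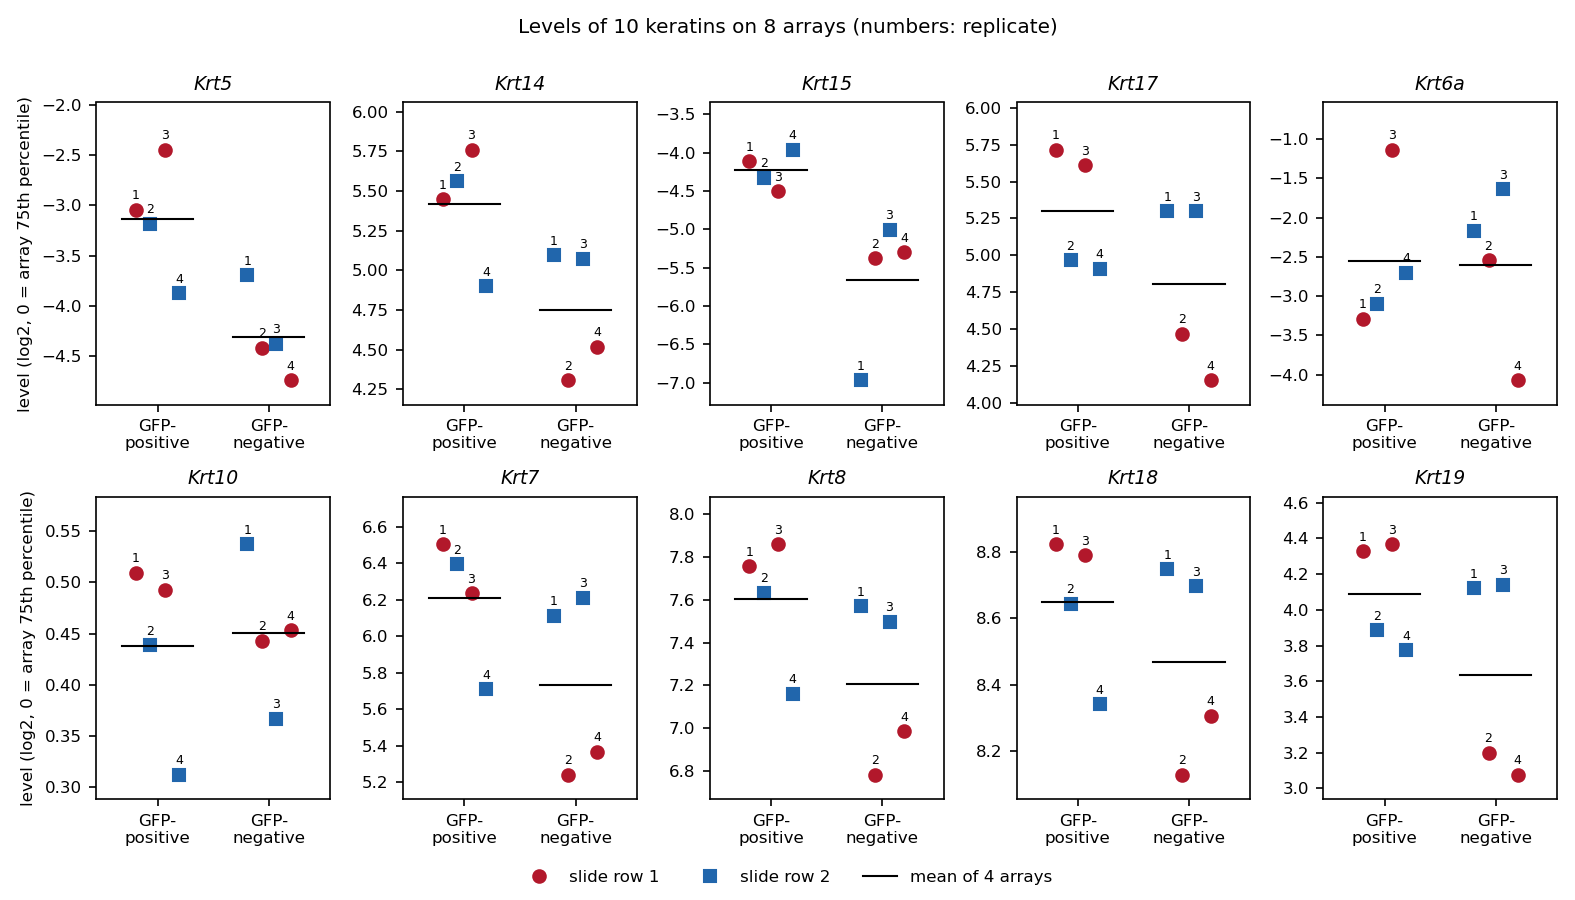
Each panel plots the level of 1 keratin (log2 processed signal relative to the array's 75th percentile, vertical axes differ) on the 4 GFP-positive arrays (left) and the 4 GFP-negative arrays (right). Circles are arrays of slide row 1, squares those of row 2, numbers are replicates and the line is the mean of 4 arrays. GFP-negative replicates 2 and 4, both in row 1, are the 2 lowest arrays for 7 of the 10 keratins, and only Krt15 separates the groups.

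Krt7, a type II keratin of simple and luminal epithelium, had levels of 6.50, 6.39, 6.24 and 5.71 in GFP-positive replicates 1 to 4, against 6.11, 5.24, 6.21 and 5.37 in GFP-negative replicates. GFP-negative replicates 1 and 3 lay close to the 3 highest GFP-positive arrays, and GFP-negative replicates 2 and 4 lay below every other array. The difference was 0.48 ± 0.27 (1.39-fold, 95% interval -0.15 to 1.10, adjusted p = 0.331).

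Krt8, the type II keratin of luminal cells, had levels of 7.76, 7.63, 7.86 and 7.16 in GFP-positive replicates 1 to 4 and of 7.57, 6.78, 7.50 and 6.99 in GFP-negative replicates. Again GFP-negative replicates 2 and 4 were lowest, GFP-positive replicate 4 came next, and the other GFP-negative arrays stood just under the 3 highest GFP-positive ones. The difference was 0.39 ± 0.22 (1.31-fold, 95% interval -0.12 to 0.90, adjusted p = 0.327). The second Krt8 probe gave the same order of groups and nearly the same size, with levels of 6.49, 6.33, 6.68 and 5.79 in GFP-positive replicates 1 to 4 and of 6.20, 5.57, 6.16 and 5.58 in GFP-negative replicates. It differed by 0.45 ± 0.23 (adjusted p = 0.303). No keratin probe passed when the kept probes were fitted singly, where 2% of all kept probes passed.

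Krt18, the type I partner of Krt8, had levels of 8.82, 8.64, 8.79 and 8.34 in GFP-positive replicates 1 to 4, against 8.75, 8.13, 8.70 and 8.31 in GFP-negative replicates. Its groups overlapped, and its range over the 8 arrays, 0.70, was less than that of Krt8 (1.08). The difference was 0.18 ± 0.17 (95% interval -0.22 to 0.58, adjusted p = 0.570). Krt19, the small type I keratin of luminal cells, had levels of 4.33, 3.88, 4.37 and 3.78 in GFP-positive replicates 1 to 4 and of 4.12, 3.20, 4.14 and 3.08 in GFP-negative replicates. Its arrays stood in the same alternating pattern as those of Krt17. The difference was 0.45 ± 0.29 (1.37-fold, adjusted p = 0.382).

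All 5 basal-type and all 4 luminal-type differences lay above 0 over all arrays, with Krt6a below 0 where arrays were centred on their median. Over the 8 arrays Krt8 correlated with its partner Krt18 (Pearson r = 0.97), and as closely with the basal gene Krt14 (0.96) and the luminal gene Krt7 (0.95). Krt5 and Krt14 had r = 0.91, and Krt17 and Krt19 had r = 0.98. Krt15, with r between -0.48 (Krt10) and 0.37 (Krt5), Krt10 (at most 0.45, with Krt18) and Krt6a (at most 0.595, with Krt19) followed the others less closely. These values describe 8 arrays that share groups, slide rows and the differences between arrays along the first principal component, so they carry no test.

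The arrays that were low for most keratins were GFP-negative replicates 2 and 4. They were the 2 lowest of the 8 arrays for 7 of the 10 keratins, namely for all 4 luminal-type genes and for Krt5, Krt14 and Krt17, and for 6.8% of all features. Within the GFP-negative group, row 1 minus row 2 came to -0.99 for Krt17, -0.99 for Krt19, -0.86 for Krt7, -0.67 for Krt14 and -0.51 for Krt18. Within the GFP-positive group the same difference ran the other way and was 0.73 for Krt17, 0.52 for Krt19, 0.32 for Krt7, 0.37 for Krt14 and 0.32 for Krt18. The mean of replicates 1 and 3 was thus above that of replicates 2 and 4 in both groups for these keratins. The row difference had opposite signs in the groups. Single arrays did not all follow the means. GFP-positive replicate 2 lay above GFP-positive replicate 1 for Krt14 (5.56 against 5.45) and above GFP-positive replicate 3 for Krt7 (6.39 against 6.24).

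Between same-numbered arrays, GFP-positive minus GFP-negative was above 0 in all 4 comparisons for 8 of the 10 keratins, and for 10.2% of all features. For Krt17 these differences were 0.42, 0.50, 0.31 and 0.76 for replicates 1 to 4, and for Krt19 they were 0.21, 0.68, 0.23 and 0.70. Krt6a was above 0 in 2 of the 4 and Krt10 in 1. The labels do not say that a shared number marks a shared experiment, and with the replicate number as a block none of the 10 passed limma's test.

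Within slide row 1, GFP-positive replicates 1 and 3 against GFP-negative replicates 2 and 4, all 10 keratins differed above 0, and 6 of them passed limma's test with adjustment over all features. In that comparison 3.18% of all features passed as higher and 2.14% as lower. Krt5 was higher by 1.84 ± 0.25 (adjusted p = 0.0364), Krt17 by 1.36 ± 0.16 (0.0275) and Krt19 by 1.21 ± 0.12 (0.0246). Krt14 (1.19, adjusted p = 0.0380), Krt7 (1.07, 0.0375) and Krt8 (0.92, 0.0407) were also higher, so the 6 held basal and luminal genes alike. Krt15 (1.03, adjusted p = 0.0509), Krt18 (0.59, 0.0820) and Krt6a (1.09, 0.472) did not pass. These tests rest on 2 arrays against 2, and with arrays centred on their median in place of the 75th percentile 3 of the 10 passed.

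Within slide row 2, GFP-positive replicates 2 and 4 against GFP-negative replicates 1 and 3, 3 of the 10 keratins differed above 0 and none passed limma's test, in which 0% of all features passed. At an unadjusted p under 0.05 there were 3 keratins in that row, Krt17, Krt6a and Krt19, all below 0, as were 5.16% of all features. The basal genes Krt5 (0.51, adjusted p = 0.595), Krt14 (0.15, 0.819) and Krt15 (1.84, 0.472) were the 3 above 0. Krt17 (-0.36), Krt19 (-0.30), Krt18 (-0.23), Krt8 (-0.14), Krt7 (-0.11), Krt6a (-0.996) and Krt10 (-0.08) were below 0. The median of the basal-type keratins was 1.19 in row 1 and 0.15 in row 2, and that of the luminal-type keratins was 1.00 in row 1 and -0.18 in row 2. Over all features the medians were -0.06 in row 1 and -0.05 in row 2.

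The difference between the 2 rows was tested directly as an interaction term over all 8 arrays. It passed for 2 of the 10 keratins, against 1.2% of all features. Krt17 differed by 1.71 ± 0.18 more in row 1 (adjusted p = 0.0351) and Krt19 by 1.51 ± 0.14 more (adjusted p = 0.0343). Read as replicate numbers, Krt17 was higher in replicates 1 and 3 than in replicates 2 and 4 by 0.73 in GFP-positive cells and by 0.99 in GFP-negative cells, which sum to the same value. At an unadjusted p under 0.05, 7 of the 10 keratins differed more in row 1, as did 9.02% of all features. Krt5 (1.33 ± 0.50, adjusted p = 0.230), Krt14 (1.04, 0.178), Krt7 (1.18, 0.142) and Krt8 (1.06, 0.0983) were not shown to differ between rows after adjustment. With the arrays centred on their median, Krt17 (1.43, adjusted p = 0.0747) and Krt19 (1.23, 0.0766) did not pass either.

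**Figure D2:**
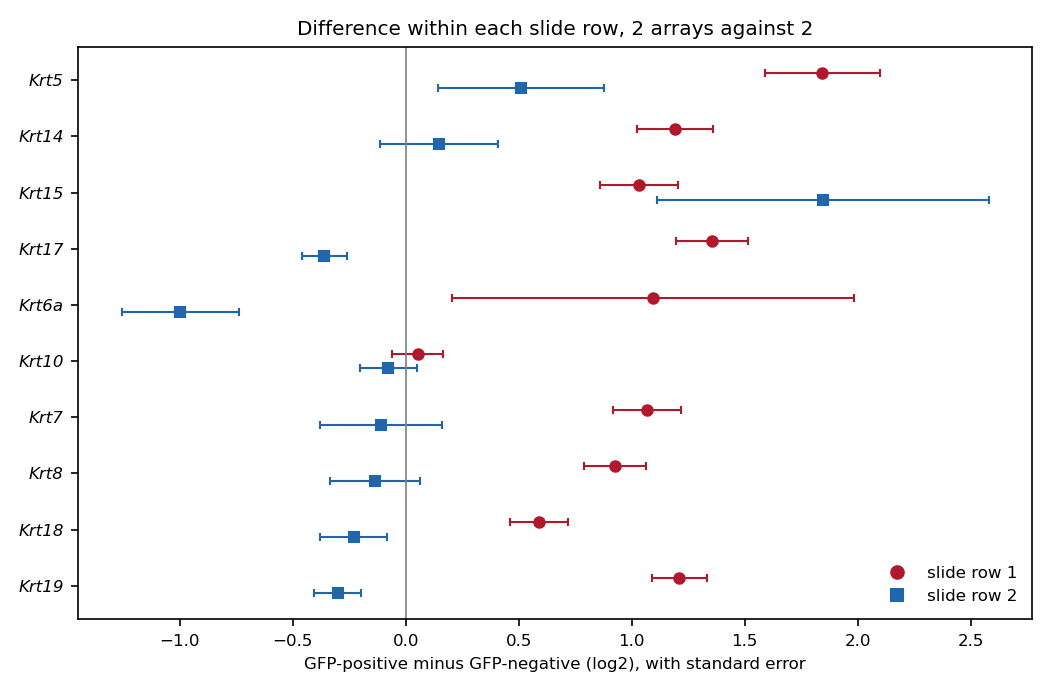
The horizontal axis gives GFP-positive minus GFP-negative (log2) for each keratin, within slide row 1 (circles) and slide row 2 (squares), 2 arrays against 2, with standard errors of limma's fit. In row 1 every point lies above 0, while in row 2 only Krt5, Krt14 and Krt15 do.

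Markers of epithelial cells moved with the keratins. All 10 epithelial identity markers, among them Epcam and Cdh1, were well above background on all 8 arrays, so the defining markers of the epithelial source were present in both groups. Their summed level (log2 of the summed signals) ran from 6.33 to 6.98 on GFP-positive arrays and from 5.46 to 6.43 on GFP-negative arrays, with GFP-negative replicates 2 (5.54) and 4 (5.46) lowest. All 10 differed above 0, with a median of 0.71, and none passed limma's test over all arrays, while 6 had an unadjusted p under 0.05. The median was 1.36 in row 1 and 0.01 in row 2. Within row 1 all 10 passed (adjusted p from 0.0210 to 0.0324), and 6 of the 10 passed the test of the difference between rows. Their part in the keratin values was not tested.

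Fibroblast markers moved the other way. Of 7 listed, 6 were well above background on all 8 arrays (Col1a1, Col1a2, Col3a1, Pdgfra, Pdgfrb and Dcn) and Lum on none. Their summed level was 3.99, 5.21, 1.91 and 5.92 in GFP-positive replicates 1 to 4, against 3.82, 7.42, 6.63 and 6.90 in GFP-negative replicates. GFP-positive replicate 3, the highest array for Krt5, Krt14 and Krt8, was lowest here, and GFP-negative replicate 2 was highest. The median of the 6 differences was -1.78, and none passed over all arrays. The median was -3.63 in row 1 and 0.41 in row 2. Pdgfra passed within row 1 (-2.83, adjusted p = 0.0163) and for the difference between rows (-3.24, adjusted p = 0.0343), and the other 5 passed neither. Their part in the keratin values was not tested.

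Few markers of other cell types were well above background. Of the leukocyte markers 3 of 7 were well above background on all arrays (Cd3e, Csf1r and Itgam). The summed level of all 7 ran from 3.58 to 4.40 on GFP-positive arrays and from 3.61 to 4.23 on GFP-negative arrays. Of 5 endothelial markers, Cdh5, Tek and Emcn were well above background on no array. Kdr was well above background on all 8 arrays, Pecam1 was also kept for the test, and neither passed. The summed level of the 5 ran from 2.67 to 2.99 on GFP-positive arrays and from 2.68 to 3.01 on GFP-negative arrays. Kdr made up most of it, at 2.65 to 2.98 on GFP-positive arrays and 2.66 to 3.00 on GFP-negative arrays. Adipoq, Plin1 and Lep of the 4 adipocyte markers were well above background on no array. Fabp4 ran from -3.20 to -1.96 on GFP-positive arrays and from -2.87 to -2.14 on GFP-negative arrays. It differed by -0.80 in row 1 and by 0.77 in row 2, neither past the threshold. The difference between rows passed limma's interaction test (-1.57, adjusted p = 0.0431).

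**Figure D3:**
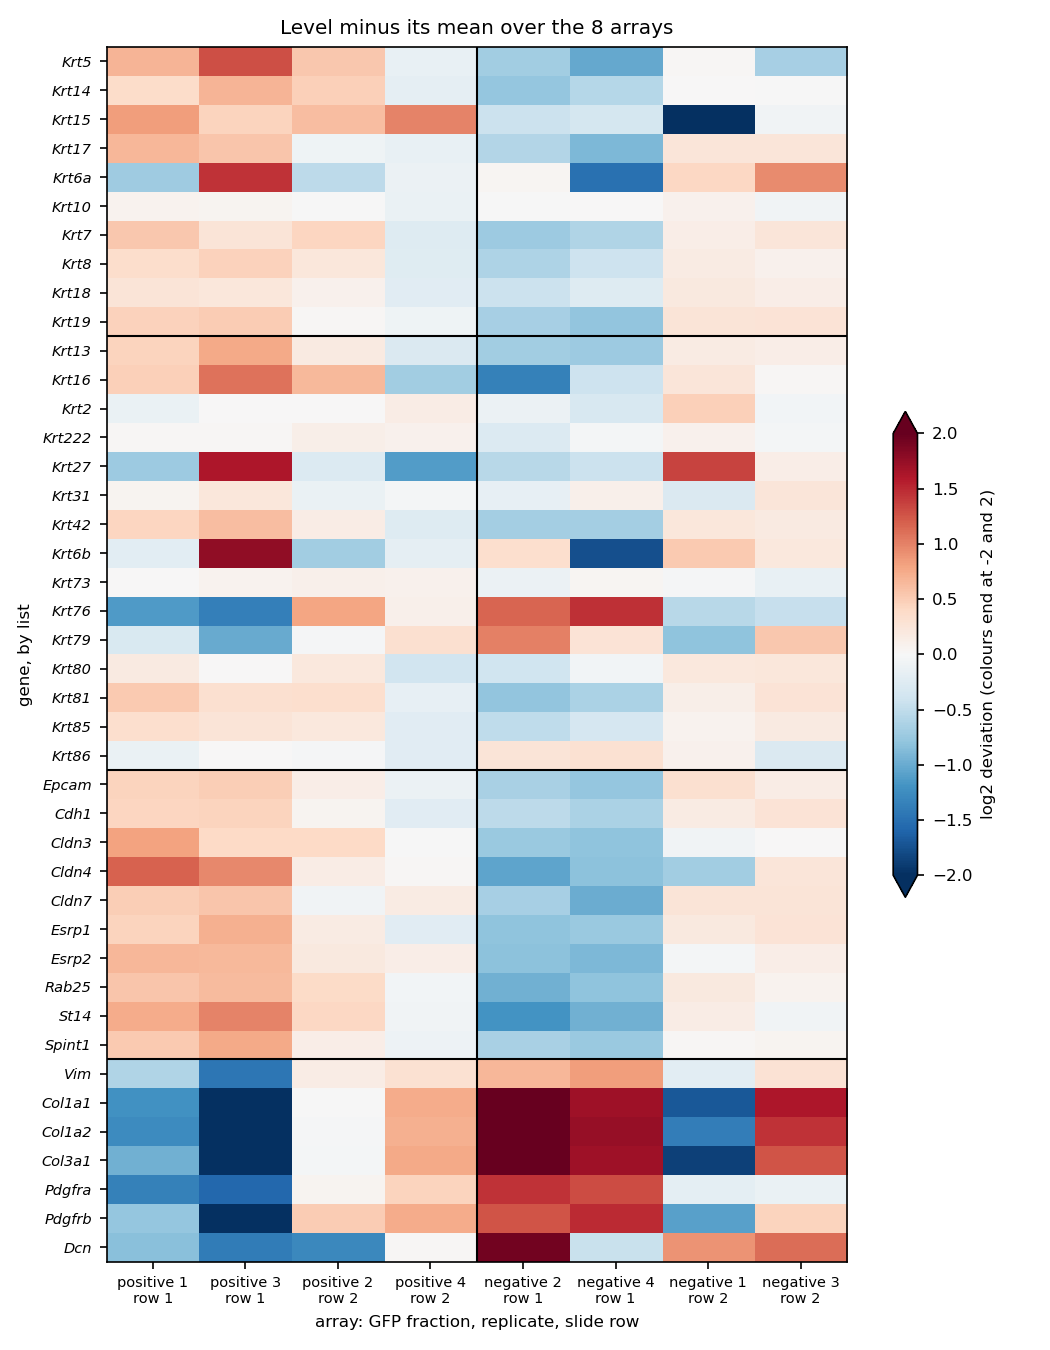
Colours give each gene's level minus its mean over the 8 arrays (log2, colours end at -2 and 2), for the 10 keratins, the 15 other keratins tested, the 10 epithelial markers, and vimentin with 6 fibroblast markers, from top to bottom. Columns are arrays, with the 4 GFP-positive arrays left and the 4 GFP-negative arrays right, each ordered by slide row. Most keratins and every epithelial marker are low on GFP-negative replicates 2 and 4, where the fibroblast markers other than Dcn are high.

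Most of the remaining keratins were not well above background. Of 44 other keratin genes with a probe, 14 were well above background on no array, 15 on 1 to 3 arrays, and 15 were tested. Of these, 11 differed above 0 and 4 below, none passed limma's test, none had an unadjusted p under 0.05, and the median was 0.12. The smallest adjusted p values belonged to the hair keratin Krt81 (0.51, 0.291), to Krt13 of internal stratified epithelia (0.55, 0.300) and to Krt73 (0.13, 0.317). The 2 Krt13 probes disagreed, since the one not used in the test differed by 1.50 ± 0.35 (adjusted p = 0.0696 over all kept probes), and their mean passed (1.02, adjusted p = 0.0111). That second probe was dim, at -5.09 to -4.39 on GFP-positive and -7.02 to -5.26 on GFP-negative arrays. The tested probe lay at 1.48 to 2.96. The call on the mean thus rests partly on a dim probe and is uncertain.

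Within slide row 1, Krt13 (1.31), Krt42 (1.20) and Krt81 (1.13) passed as higher, the direction of the 6 keratins named above, and Krt76 of oral epithelium passed as lower (-2.56, adjusted p = 0.0187). Krt76 had levels of -4.12, -2.19, -4.34 and -2.88 in GFP-positive replicates 1 to 4, against -3.54, -1.81, -3.44 and -1.53 in GFP-negative replicates 1 to 4. It was high in replicates 2 and 4 of both groups and low in replicates 1 and 3. Its row difference of -3.51 passed (adjusted p = 0.0349), as did that of Krt42 (1.45, adjusted p = 0.0493). Krt16, a type I keratin made with Krt6a in wounded skin and named here beyond the rule, had levels of 4.49, 4.66, 5.11 and 3.32 in GFP-positive replicates and of 4.26, 2.67, 4.03 and 3.60 in GFP-negative replicates, a difference of 0.75 with an adjusted p of 0.356.

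Outside the keratins, 3 of the 11 other intermediate filament genes tested were higher in GFP-positive cells and none was lower. Their median difference was -0.05, and 1.82% of all features were higher in the same test. Synm, which encodes the muscle and glial filament protein synemin, had levels of -1.85, -2.16, -1.87 and -2.11 in GFP-positive replicates 1 to 4, against -3.63, -3.25, -3.42 and -3.46 in GFP-negative replicates. The groups were far apart and each was tight. The difference was 1.44 ± 0.11 (2.72-fold, adjusted p = 0.0010), it was 1.50 in row 1 and 1.39 in row 2, and Synm passed without each of the 8 arrays in turn. With normexp correction the difference was 0.79 (adjusted p = 0.000435).

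Nefh, the neurofilament heavy chain of neurons, had levels of -2.72, -3.20, -2.59 and -2.69 in GFP-positive replicates 1 to 4 and of -3.80, -4.22, -3.78 and -4.05 in GFP-negative replicates. The groups did not overlap, and the difference of 1.16 ± 0.16 (2.24-fold) had an adjusted p of 0.0112, which came to 0.0530 without GFP-positive replicate 1. With normexp correction the difference was 0.53 (adjusted p = 0.0139). Bfsp2, a filament protein of the eye lens, had levels of -3.16, -3.36, -3.53 and -3.66 in GFP-positive replicates 1 to 4, against -4.11, -4.91, -4.28 and -4.18 in GFP-negative replicates. Its difference of 0.94 ± 0.19 passed narrowly (1.92-fold, adjusted p = 0.0494). It did not pass without any one of the 8 arrays, where its adjusted p ran from 0.0576 to 0.156, and it was 0.29 under normexp correction.

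Vim, which encodes vimentin, had levels of 6.05, 6.80, 5.22 and 6.96 in GFP-positive replicates 1 to 4 and of 6.44, 7.32, 6.94 and 7.50 in GFP-negative replicates 1 to 4. GFP-positive replicate 3 was lowest. GFP-negative replicates 2 and 4, the 2 lowest arrays for 7 of the 10 keratins, were highest. The difference of -0.79 ± 0.41 did not pass (adjusted p = 0.282), and it was -1.78 in row 1 and 0.19 in row 2. Synm and Nefh kept the groups apart on all arrays, while Vim, like most keratins, followed GFP-negative replicates 2 and 4.

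**Figure D4:**
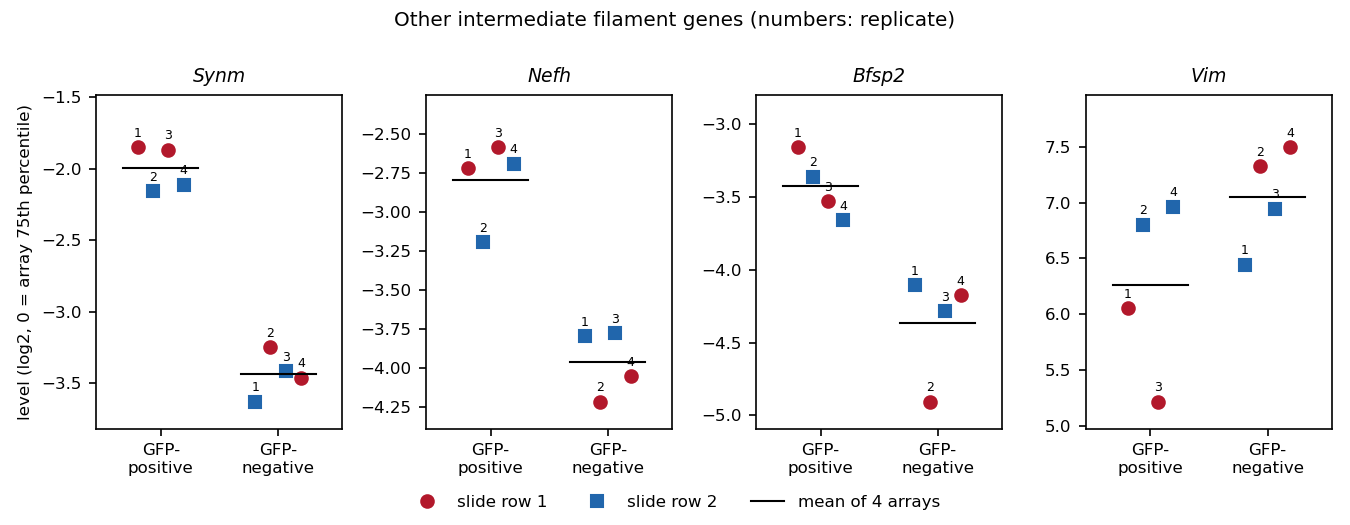
Levels of 4 other intermediate filament genes (log2 processed signal relative to the array's 75th percentile) on the 4 GFP-positive arrays (left) and the 4 GFP-negative arrays (right) in each panel, with circles for slide row 1, squares for row 2, replicate numbers and the mean of 4 arrays as a line. Synm, Nefh and Bfsp2 separate the groups on all arrays, and Vim does not.

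Genes that hold keratin filaments at cell contacts gave no call. Of 20 anchors and binding partners tested, 14 differed above 0 and 6 below, and none passed limma's test. The median was 0.17, with 0.52 in row 1 and -0.10 in row 2. Evpl (1.24 ± 0.29, adjusted p = 0.0640), which encodes the desmosomal linker envoplakin, and Itgb4 (1.46 ± 0.38, 0.0817), the hemidesmosomal integrin that anchors keratins of basal cells, had the smallest adjusted p values. Itgb4 had levels of 4.70, 4.20, 5.12 and 3.86 in GFP-positive replicates 1 to 4 and of 3.80, 2.33, 3.34 and 2.58 in GFP-negative replicates, so its groups did not overlap, though by little. Pnn, which encodes the desmosome-associated and nuclear protein pinin, differed by -0.31 ± 0.09 (adjusted p = 0.100). Within row 1, Evpl (2.00, adjusted p = 0.0198), Itgb4 (2.46, 0.0210) and Krtcap3 (1.20, 0.0362) passed as higher, as did 3.18% of all features. Evpl (1.53, adjusted p = 0.0374) and Krtcap3 (1.39, 0.0431) also passed the test of the difference between rows, against 1.2% of all features.

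Transcription factors of keratin genes and of mammary lineages gave none past limma's test over all arrays either, with 13 of 16 differing above 0 and a median of 0.18. Klf5, a factor of basal and luminal epithelium, differed by 0.25 (adjusted p = 0.210), the epithelial factor Ehf by 1.17 (0.228) and the oestrogen receptor gene Esr1 by 0.27 (0.245). Within row 1, Grhl2 (1.56, adjusted p = 0.0207) and Elf3 (0.98, 0.0373) passed as higher. In row 2 they lay below 0 (-0.28 and -0.53), and both passed the test of the difference between rows (adjusted p = 0.0343 and 0.0351). Among 17 basal mammary genes other than keratins, 15 differed above 0 over all arrays and none passed, with a median of 0.11. Some of these lay close to 0, such as Mylk (0.0012) and Nrg1 (0.0050). Itgb4 led that list as well, followed by the growth factor receptor gene Egfr (0.46, adjusted p = 0.119) and the laminin gene Lamb3 (0.55, 0.328). Within row 1, Itgb4 (2.46, adjusted p = 0.0210) and Dll1 (1.54, 0.0485) passed as higher and Igfbp5 (-2.74, 0.0163) as lower. Acta2 (-0.65), Cnn1 (-0.40), Tagln (-0.49) and Snai2 (-0.37) lay below 0 in row 1. In row 2 they lay above it (1.03, 0.63, 0.67 and 0.53), while Mylk ran the other way (0.25 and -0.25). The list medians were 0.21 in row 1 and 0.08 in row 2.

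Among 17 luminal mammary genes other than keratins, 13 differed above 0 over all arrays with a median of 0.35. In that test 2 passed as higher, against 1.82% of all features. Wnt4, the progesterone-induced signal of luminal cells, had levels of 1.36, 1.24, 1.92 and 1.02 in GFP-positive replicates 1 to 4, against 0.45, 0.47, 0.35 and 0.19 in GFP-negative replicates, and differed by 1.02 ± 0.18 (adjusted p = 0.0346). Cd14, the lipopolysaccharide co-receptor also used as a luminal progenitor marker, had levels of 2.15, 2.29, 2.42 and 2.13 in GFP-positive replicates 1 to 4, against 1.84, 1.47, 1.59 and 1.85 in GFP-negative replicates, and differed by 0.56 ± 0.11 (adjusted p = 0.0499). The groups overlapped for neither gene. Wnt4 passed without GFP-positive replicate 3 (0.0270) or GFP-positive replicate 4 (0.0326) and not without any other array, with adjusted p values up to 0.115, and Cd14 did not pass without any one array (0.0657 to 0.135).

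The cornified envelope list, genes of terminal differentiation in stratified epithelium, gave none past limma's test over all arrays. Of 10 tested, 7 differed above 0, with a median of 0.41. Within row 1 the loricrin gene Lor passed as higher (1.915, adjusted p = 0.0322). Over all arrays Sprr1a, a small proline-rich envelope protein gene, differed by 1.02 ± 0.23 (adjusted p = 0.0588), Crct1 by 0.45 ± 0.12 (0.0819) and Lor by 0.98 ± 0.43 (0.219). Krt10, which accompanies loricrin in the suprabasal layers of skin, had a difference of -0.01 by its tested probe and 0.38 by the second.

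The genes whose levels most resembled those of Krt5 over the 8 arrays were Hgfac, Kctd11, Nat2, Arrdc4 and Myo9b, with Pearson correlations from 0.978 to 0.980. Their differences were 1.26, 0.46, 0.41, 0.41 and 0.22, and none passed (adjusted p from 0.0863 to 0.166). Those nearest to Krt8 were Kazn, Dok2, Lnx1, Tmem54 and Sertad1, with correlations from 0.987 to 0.997. They differed by 0.53, 0.71, 0.43, 0.57 and 0.17, with adjusted p values from 0.314 to 0.368. All 5 differed above 0 in row 1, by 0.39 to 1.70, and below 0 in row 2, by -0.28 to -0.04. Krt8 did the same, and the 5 were picked for their likeness to it over these arrays, so this adds no separate result.

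Without GFP-negative replicates 2 and 4, left out together after their levels had been seen, the median difference of the basal-type keratins was 0.33 and that of the luminal-type keratins was 0.0037. Krt5 (0.90) and Krt15 (1.76) remained above 0, while Krt18 (-0.07), Krt19 (-0.04) and Krt6a (-0.65) lay below it, and none of the 10 passed limma's test. With 2 GFP-negative arrays left, this comparison has the same few arrays as row 2 on that side.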

How the data were processed

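RNA of 8 sorted cell samples was measured on one-colour Agilent arrays, 1 array per sample, from 20 ng of total RNA labelled with Cy3. The deposited intensity values are Agilent Feature Extraction's processed signals, made with version 10.7.3.1 per the file headers and already corrected for background by that program. The submitters' processing notes name the program without a version, and the sources used here do not give the authors' later steps. The labels gave the groups and the replicate numbers. The 10 keratins, the gene lists and the comparisons were chosen with earlier results of these data known.

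Of 62976 spots per array, 59305 were not controls. Outlier spots, 106 to 186 per array, were dropped, and no spot was saturated. The deposited intensities were taken to log2 and set relative to each array's 75th percentile, and spots of a probe were averaged. A probe was kept if it was well above background on 4 or more of the 8 arrays (27589 probes), and the brightest such probe stood for its gene. Accessions of 27509 probes (49.4%) matched a RefSeq table of GRCm38.p6, used for symbols and promoter windows only. The number of arrays limits the precision.

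GFP-positive minus GFP-negative was fitted over 19775 features by lmFit and eBayes of limma 3.58.1 without a block, two-sided, in R 4.3.3 (data.table version 1.17.8 read the files), and p-values were adjusted by Benjamini-Hochberg with a threshold of 0.05. The same fit was run within each slide row, and the difference between rows was fitted as an interaction. The steps were tested on simulated data with each gene's own spread. Genes were drawn independently, so variation that genes of an array share was left out. The changed genes were picked at random over the features, so the shares are not those for a keratin. Of simulated log2 changes of 0.5 and of 1, 22% and 74% passed over all arrays. For the difference between rows, 6% of changes of 1 and 60% of changes of 2 passed. A gene that did not pass is therefore not shown to be unchanged. All 10 keratins are named with every probe. Of the other keratins and of each list, at most 4 genes past the threshold are named, or the 3 with the smallest adjusted p, and for Krt5 and Krt8 the 5 most correlated genes. Alternatives were normexp background correction (offset 50), other scalings, filters, probe rules and variance models, slide row or replicate number as a block, and leaving out arrays.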

Additional observations from a re-analysis of the deposited data

Results flagged for a closer look

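For Krt17 the difference between GFP-positive and GFP-negative cells was 1.36 within slide row 1 and -0.36 within row 2, and the difference between these values, 1.71 ± 0.18, passed limma's interaction test (adjusted p = 0.0351).

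For Krt19 it was 1.21 in row 1 and -0.30 in row 2, and the difference between the rows was 1.51 ± 0.14 (adjusted p = 0.0343). In this layout the same quantity is replicates 1 and 3 minus replicates 2 and 4 summed over both groups, so a change of the contrast between rows and a shift of replicates shared by both groups cannot be told apart.

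None of the 26 sets of 4 arrays, 13 keratin probes in each group, held an array whose gap to its neighbour passed Dixon's limit for 4 values, a gap taken as a share of the range. Krt15 in GFP-negative cells came closest, where the gap of replicate 1 was 0.811 of the range.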

How the results depend on the processing

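None of the 10 keratins passed the threshold over all 8 arrays. The count was 2 with array weights and 6 within slide row 1, ran from 0 to 1 with each array left out in turn (1, Krt15, without GFP-negative replicate 1), and was 0 under every other setting run. The other keratins gave 1 call with the mean of a gene's probes (Krt13, partly through a dim probe) and 4 within row 1, and 0 otherwise. Over all features, 505 passed. That count was 785 with normexp correction, 204 with the array median, 152 with no filter on dim probes, 1165 with an intensity trend and robust prior, 1799 with array weights, 279 with slide row as a block, 1053 within row 1 and 0 within row 2 (limma, with 2154 at an unadjusted p under 0.05). It was 97 without GFP-negative replicates 2 and 4, a setting chosen after seeing the data, and ran from 151 to 425 with each array left out, lowest without GFP-positive replicate 1, and fell by more than 1.5 times without every array but GFP-positive replicate 2. Higher calls made up 71.3% of all calls, against 54% with normexp correction, 81.5% with quantile normalization, 89.7% with the array median and 85.8% with the percentile over probes well above background on all arrays. The array median moved the median of all features by -0.12 on the log2 scale.

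The median of the basal-type keratins was 1.19 within row 1 and 0.15 within row 2, and that of the luminal-type keratins 1.00 and -0.18, and 0.0037 without GFP-negative replicates 2 and 4. With single arrays left out the medians ran from 0.52 to 0.84 for the basal type and from 0.28 to 0.56 for the luminal type. Within row 2 the sign turned for Krt17 (-0.36), Krt6a (-0.996), Krt7 (-0.11), Krt8 (-0.14), Krt18 (-0.23) and Krt19 (-0.30). Without GFP-negative replicates 2 and 4 it turned for Krt6a (-0.65), Krt18 (-0.0724) and Krt19 (-0.0420). Krt6a also turned with the array median (-0.0734) and array weights (-0.27), and with each array left out it ran from -0.44 (GFP-negative replicate 4) to 0.37, with -0.42 on leaving out GFP-positive replicate 3. Krt10 was near 0 in the main fit. It turned with normexp correction (0.0120), quantile normalization (0.0120), the percentile over detected probes (0.0532) and the mean of probes (0.18). It also turned with array weights (0.0217) and within row 1 (0.0530), and ran from -0.0396 to 0.0303 with each array left out. The causes were not tested.

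The row difference, rerun under 5 settings chosen after seeing the data, passed for 0 keratins with the array median and for 4 with an intensity trend and robust prior, against 2. Same-numbered arrays of the groups had correlated deviations of -0.0263, 0.0703, 0.0214 and 0.184, so a shared number was not taken to pair them. Across numbers, GFP-positive replicate 3 with GFP-negative replicate 1 gave 0.602, 1 with 3 gave 0.428, 4 with 2 gave 0.652 and 2 with 4 gave 0.335, while replicates 1 or 3 with 2 or 4 gave values below 0. With the replicate block 216 features and 0 keratins passed, and Krt5 had an adjusted p of 0.111.

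Krt6a had the largest standard error (0.62), and Krt15 and the second Krt5 probe were limited by signal near background.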
